A study of Mus musculus with 6 samples.

Results

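The genes described here are 10 transcription factor genes of the nuclear receptor superfamily that act in liver: Ppara, Rxra, Nr1h3, Nr1i3, Nr1i2, Nr3c1, Esrra, Nr5a2, Hnf4a and Hnf4g. They were taken by symbol, and each matched a single row among the 32285 features of the deposited count matrices. RNA was measured in single nuclei of whole liver (10x Genomics 3′ libraries) from 6 male mice, 18 weeks old, fed chow and fasted for 12 hours overnight. Of these, 3 mice were Plvap knockouts, with the deletion in hepatic stellate cells per the series design, and 3 were littermate controls. Plvap encodes a protein of endothelial fenestral diaphragms and caveolae. The labels give the strain as C57BL/6JBomTac for both groups, and the source label is also the same for both: it joins the allele Plvaptm1.1Salm to the transgene Tg(Lrat-cre)1Rshw. Lrat, whose regulatory sequence names the Cre transgene, is a gene of retinoid-storing stellate cells. Whether Cre was present in the controls is not stated in the labels. Each library came from 1 mouse, so the spread between libraries includes the spread between mice.

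Nuclear receptors are transcription factors that bind DNA through zinc fingers, and many of them change their activity when a small lipophilic molecule occupies a pocket in the protein. In hepatocytes they tie gene expression to fasting fatty acids (PPARA), oxysterols (LXRα, encoded by Nr1h3), foreign compounds and bile acids (CAR, encoded by Nr1i3, and PXR, encoded by Nr1i2) and glucocorticoids (the receptor encoded by Nr3c1). RXRA, the product of Rxra, is the dimer partner of PPARA, LXRα, CAR and PXR. HNF4A keeps hepatocytes differentiated, HNF4G is its close relative, LRH-1 (Nr5a2) acts on bile acid and cholesterol genes, and ERRα (Esrra) drives mitochondrial genes together with PGC-1 coactivators. The liver lobule is zoned: hepatocytes near the central vein express bile acid and drug metabolism genes, and those near the portal vein express gluconeogenic and urea cycle genes.

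The promoters of 3 members whose levels differed between these zones are printed to show the sequence at their start sites. Each runs from 250 bases before to 50 bases after the RefSeq start (GRCm38.p6), 5′ to 3′ on the gene's strand, and capitals mark motif matches found on either strand. Nr1i3 (chr1:171213720-171214019, plus strand) held the E-box CACGTG. Nr1i2 (chr16:38294775-38295074, minus strand) held CTTTGA, the core of sites bound by the TCF factors of Wnt signalling. Esrra (chr19:6921759-6922058, minus strand) held 2 GC boxes, GGGCGG.
Nr1i3: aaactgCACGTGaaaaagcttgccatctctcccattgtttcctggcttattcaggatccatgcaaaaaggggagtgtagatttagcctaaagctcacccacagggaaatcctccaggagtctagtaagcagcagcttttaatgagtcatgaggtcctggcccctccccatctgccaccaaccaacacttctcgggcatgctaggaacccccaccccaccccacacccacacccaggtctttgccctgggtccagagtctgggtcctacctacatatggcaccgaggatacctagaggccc
Nr1i2: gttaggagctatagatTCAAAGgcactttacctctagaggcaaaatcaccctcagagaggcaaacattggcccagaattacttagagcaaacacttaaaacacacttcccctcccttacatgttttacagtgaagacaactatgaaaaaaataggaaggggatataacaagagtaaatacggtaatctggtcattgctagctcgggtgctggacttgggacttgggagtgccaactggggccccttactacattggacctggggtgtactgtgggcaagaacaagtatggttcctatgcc
Esrra: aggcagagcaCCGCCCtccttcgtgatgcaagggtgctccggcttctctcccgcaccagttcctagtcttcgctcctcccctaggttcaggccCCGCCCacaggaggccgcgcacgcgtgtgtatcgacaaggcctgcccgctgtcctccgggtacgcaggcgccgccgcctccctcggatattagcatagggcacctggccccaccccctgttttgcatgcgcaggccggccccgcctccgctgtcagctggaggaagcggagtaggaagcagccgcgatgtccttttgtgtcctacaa
Of all 32851 RefSeq promoters of this length, 7.15% held CACGTG, 16% held CTTTGA and 35.7% held GGGCGG. The nuclear receptor hexamer AGGTCA, held by 16.3% of promoters, was in none of these 3. RefSeq promoters were found for 8 of the 10 members, 12 promoters in all. Elsewhere among them, AGGTCA had 2 matches in the downstream Rxra promoter and 1 in the upstream Nr5a2 promoter. The HNF1 hexamer GTTAAT, held by 7.1% of promoters, had 2 matches in the downstream Hnf4a promoter and 1 in the upstream Nr5a2 promoter. A match is a string of letters and not a measured binding site.

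The 6 libraries held 27297 barcodes and 23153182 to 27199466 UMIs each, and 25662 nuclei were kept. Hepatocyte nuclei numbered 778, 913 and 694 in knockout 1 to 3 and 1126, 715 and 989 in control 1 to 3. Libraries stood apart by cluster without regard to genotype. Nearly all hepatocyte nuclei of knockout 2 and control 1 lay in a pair of clusters, led by Ces3b, Angptl8 and G0s2 or by Tbx3 and Lgr5, that held almost no other library, and 92.2% of a further hepatocyte cluster came from knockout 1. Of the distinct barcodes, 69 (0.27%) occurred in more than 1 library. Plvap was counted at 233, 196 and 159 CPM (counts of the gene scaled to the class's total UMIs in that library) in knockout stellate nuclei and at 245, 228 and 243 CPM in control stellate nuclei, so the ranges overlapped. No label names the deleted exons, and a 3′ count from outside them checks nothing about the deletion. A list of 15 abundant hepatocyte transcripts that can be free in a nuclei suspension, such as Alb and Ttr (the free hepatocyte RNA list), made up 2.02%, 2.06% and 2.40% of UMIs in knockout hepatocyte nuclei, against 1.53%, 1.39% and 1.45% in control ones, and its part in the results was not tested.

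The 10 genes had different homes among the 7 cell classes that were named from markers and had at least 20 nuclei in every library, and these levels are a description without a test, since the classes come from clusters of the same nuclei. By mean level over the 6 libraries, hepatocytes stood first for 5 genes (Ppara, Rxra, Hnf4a, Nr1i2 and Nr1i3), cholangiocytes for Hnf4g and Nr5a2, macrophages for Nr1h3 and Esrra, and T/NK cells for Nr3c1. Hnf4a, Nr1i2, Nr1i3 and Ppara had hepatocyte ranges above those of all other classes, whereas the hepatocyte range of Rxra overlapped that of macrophages. CPM values are read across classes within a gene, not between genes.

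**Figure D1:**
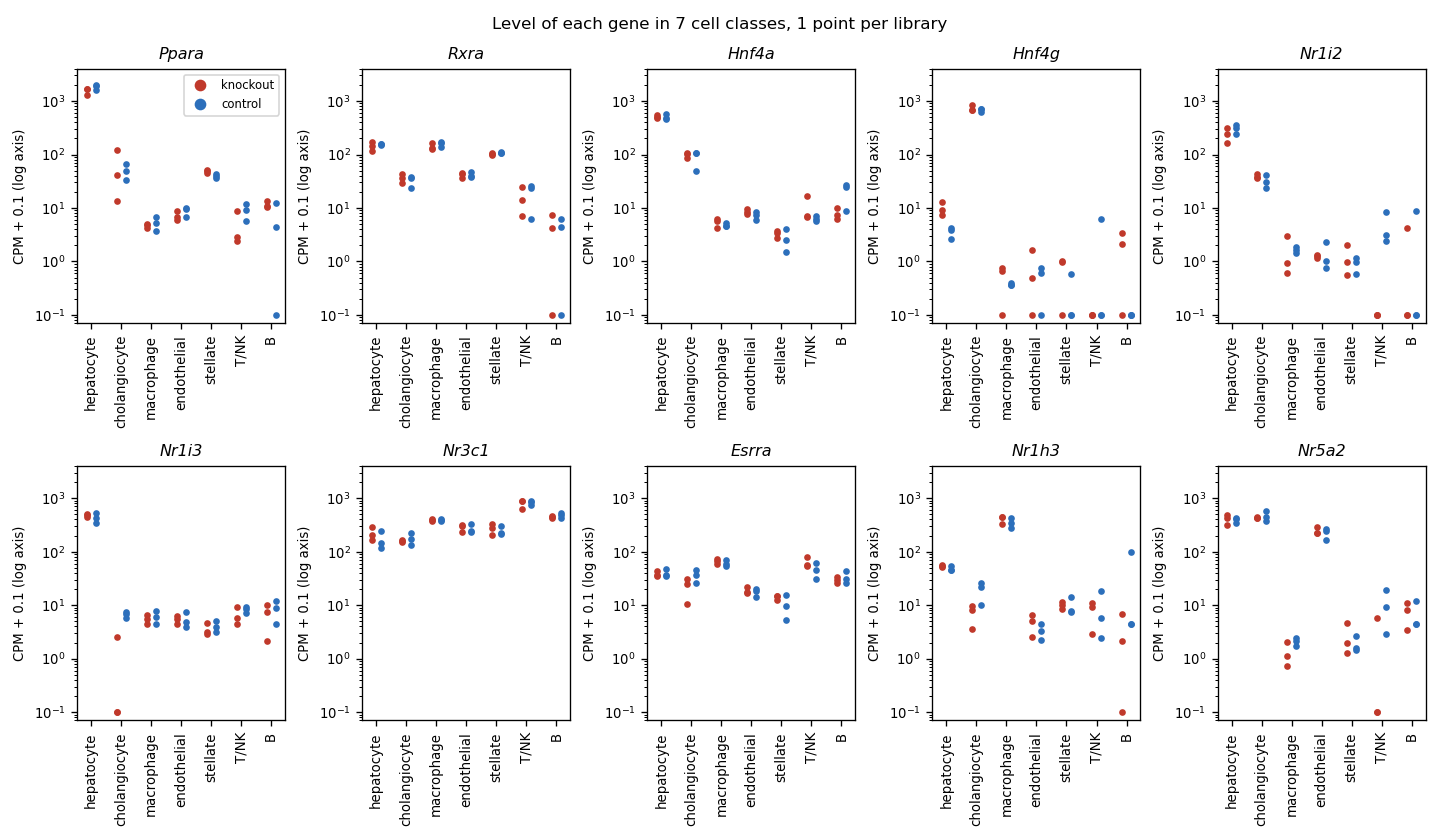
Level of each gene in 7 cell classes, as CPM + 0.1 on a log axis, with 1 point per library and knockout points left of control points. Ppara, Hnf4a, Nr1i2 and Nr1i3 stand highest in hepatocytes, Hnf4g in cholangiocytes, Nr1h3 in macrophages and Nr3c1 in T/NK cells.

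Ppara, the fatty acid receptor of fasting (chromosome 15, bases 85734983 to 85802819, mm10, plus strand), averaged 1703 ± 247 CPM in hepatocytes (SD, n = 6). Cholangiocytes followed at 53.8 ± 37.2 CPM and stellate cells at 43.9 CPM with a range of 35.8 to 51.3. These ranges overlapped each other, and the other 4 classes lay below 13.4 CPM in every library. After thinning each nucleus to 1500 UMIs, 78.8% to 89.5% of hepatocyte nuclei held a Ppara UMI, against 0.92% to 1.72% of endothelial nuclei. Unthinned, the share in hepatocytes was 98.3% to 99.4%. Stellate nuclei lay above that endothelial level, at 4.98% to 6.77% after thinning.

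Rxra, the shared dimer partner (chromosome 2, bases 27676440 to 27762957), had 150 ± 17.3 CPM in hepatocytes and 149 ± 17.7 CPM in macrophages (SD, n = 6 each). Stellate cells followed at 104 CPM, with a range of 99.5 to 109 that touched neither. Endothelial cells had 41.5 CPM and cholangiocytes 34.4 CPM, with overlapping ranges, and B cells were lowest at 3.63 CPM, from 6 UMIs in all.

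Nr1h3, which encodes LXRα (chromosome 2, bases 91184061 to 91202834, minus strand), averaged 378 ± 72.4 CPM in macrophages, against 50.9 ± 4.69 CPM in hepatocytes (SD, n = 6 each). The macrophage range of 275 to 453 CPM did not meet the hepatocyte range of 44.6 to 56.0 CPM. Within macrophages the Marco-led cluster had 529 CPM, the Il1b-led cluster 417 CPM and the Kcnj16-led and Cd163-holding cluster 326 CPM, with overlapping ranges over libraries. A macrophage-scored cluster led by Negr1, F13a1 and Gpr141, left out of the class for its low score, had 56.9 CPM. B cells reached 96.6 CPM in 1 library and averaged 19.0 CPM on 21 UMIs.

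The xenobiotic receptors were concentrated in hepatocytes. Nr1i3 (CAR; chromosome 1, bases 171213970 to 171220701, plus strand) averaged 457 ± 62.6 CPM there, and every other class lay between 0 and 12.1 CPM in each library. Nr1i2 (PXR; chromosome 16, bases 38248323 to 38294824, minus strand) averaged 270 ± 69.1 CPM in hepatocytes (SD, n = 6 each). Nr1i2 had a second, lower level of 35.0 CPM in cholangiocytes, with a range of 23.1 to 43.5 CPM, and did not exceed 8.81 CPM in any library of the other 5 classes. Cholangiocytes held 9 Nr1i3 UMIs in all, so the 2 receptors parted there. Hepatocyte markers summed to 2490, 2976 and 3417 CPM in knockout cholangiocytes and 2110, 2384 and 2775 CPM in control ones. The part of hepatocyte RNA in the cholangiocyte levels of Nr1i2, Ppara and Hnf4a was not tested.

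Nr3c1, the glucocorticoid receptor gene (chromosome 18, minus strand), was present in all 7 classes. It averaged 809 CPM in T/NK cells, 463 CPM in B cells and 390 CPM in macrophages, and none of these ranges met. Endothelial cells (275 CPM), stellate cells (260 CPM), hepatocytes (192 CPM) and cholangiocytes (168 CPM) followed with ranges that overlapped from one to the next. Within T/NK cells the cluster led by Cd226 and Atp8a2 had 991 ± 121 CPM, above the Lef1 and Il7r-led cluster at 452 ± 83.2 CPM (SD, n = 6 each) and the Ncr1 and Klra-led cluster at 567 CPM in the 4 libraries that held enough nuclei.

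Esrra, the gene of ERRα (chromosome 19, bases 6910977 to 6921813, minus strand), was found in all 7 classes: macrophages (64.0 CPM), T/NK cells (55.3 CPM), hepatocytes (39.3 CPM), B cells (31.4 CPM), cholangiocytes (29.2 CPM), endothelial cells (18.3 CPM) and stellate cells (12.0 CPM), each overlapping the next. The left-out Dmbt1-led cluster of cholangiocyte-scored nuclei, 96.4% from control 2, had 110 CPM.

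Nr5a2, which encodes LRH-1 (chromosome 1, bases 136842571 to 136960448, minus strand), had 3 sites of expression. It averaged 448 ± 65.9 CPM in cholangiocytes, 400 ± 59.8 CPM in hepatocytes and 236 ± 43.2 CPM in endothelial cells (SD, n = 6 each). The first 2 ranges overlapped, and the endothelial range of 166 to 293 CPM lay below both. All other classes averaged at most 7.19 CPM. Within the endothelial class, the cluster led by Csmd1, Esrrb and Pcdh17 had 313 ± 24.2 CPM and the cluster led by Plppr5, Lhx6 and Wnt2 had 194 ± 36.9 CPM (SD, n = 6 each), with no overlap. Endothelial-scored clusters left out of the class were lower still, at 73.6 CPM (led by Nrg1, with Vwf) and 35.9 CPM (led by Mmrn1, in 5 libraries).

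The 2 HNF4 genes had opposite homes. Hnf4a (chromosome 2, bases 163506808 to 163572910, plus strand) averaged 506 ± 44.1 CPM in hepatocytes and 93.6 ± 23.6 CPM in cholangiocytes, whereas Hnf4g (chromosome 3, bases 3508030 to 3658052, plus strand) averaged 6.63 ± 3.92 CPM in hepatocytes and 700 ± 70.6 CPM in cholangiocytes (SD, n = 6 each). Ranges of the 2 classes did not overlap for either gene. After thinning, 38.2% to 58.2% of cholangiocyte nuclei held an Hnf4g UMI (60.0% to 77.9% unthinned), against 0.27% to 1.29% of hepatocyte nuclei and at most 0.30% of macrophage nuclei. The left-out Dmbt1-led cluster, 96.4% from control 2, held both genes, at 534 CPM of Hnf4g and 226 CPM of Hnf4a.

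The genes whose class profile was most like that of a member were named by Pearson's r of log2(mean CPM + 1) over the 7 classes, which share libraries and depth, so r is a description. For Hnf4a they were Rida, Pcbd1 and Ahsg (r = 0.994 to 1.000), for Nr1i2 Mlxipl, Hnf4aos and Pbld1, and for Nr1i3 Cyp2c37, Gm4788 and Cldn1. For Ppara they were Gm11963, Decr2 and Eva1a, for Hnf4g 5330417C22Rik, Veph1 and Fam107a, and for Nr5a2 Bend7, Efna1 and Syap1. For Nr1h3 they were Dhrs1, Phka2 and Slc8a1, and for Nr3c1 Cracr2a, Mad1l1 and Abracl. Rxra came nearest to Sec24d, with r = 0.968, and Esrra to Setd1b, with r = 0.986.

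Whether loss of Plvap in stellate cells went with a change of these receptors in hepatocytes was asked by summing UMIs per mouse. With edgeR's quasi-likelihood test and Benjamini-Hochberg adjustment, none of the 10 members passed an adjusted p of 0.05, where 0% of 13722 genes tested did (470 genes had an unadjusted p under 0.05, and DESeq2 called 15 genes, no member among them). By sign, 4 members were higher and 6 lower in knockout hepatocytes, with a median log2 fold change of -0.02, beside -0.0026 for all genes.

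**Figure D2:**
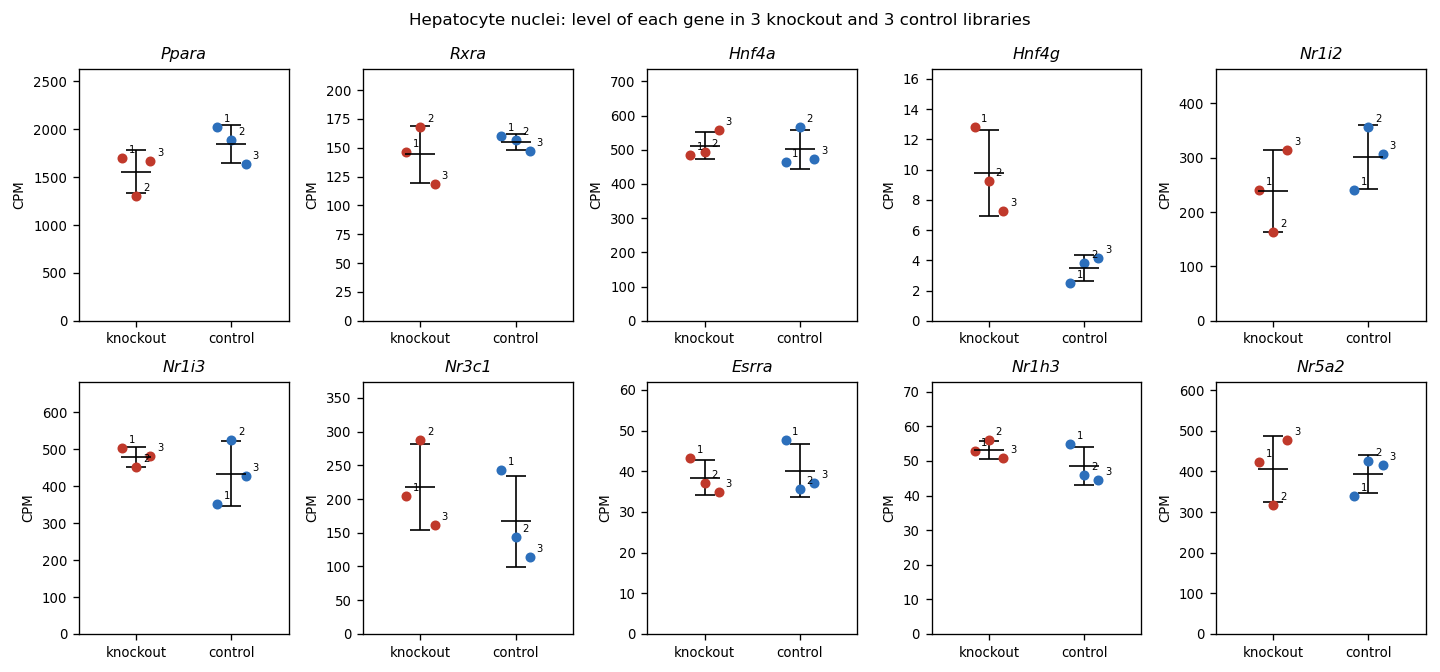
Level of each gene in hepatocyte nuclei, in CPM, for knockout libraries (left) and control libraries (right). Points are libraries with their replicate number, and black marks give the mean and SD (n = 3 each). Hnf4g is the member whose groups do not overlap.

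Hnf4g was the member with the widest gap. Its level was 12.8, 9.24 and 7.27 CPM in knockout hepatocytes, against 2.49, 3.82 and 4.14 CPM in control hepatocytes. Every knockout library lay above every control library, which 4.56% of all tested genes did in this direction and 7.6% in either. The log2 fold change was 1.41 (SE 0.33, unadjusted p = 0.0034), and it did not pass after adjustment (Benjamini-Hochberg adjusted p = 0.9995 with edgeR, 0.11 to 1 over the alternatives, the lowest with DESeq2). The counts behind it were small: 107, 92 and 55 UMIs in 42, 41 and 18 knockout nuclei, against 27, 31 and 50 UMIs in 14, 18 and 19 control nuclei. Nuclei with Hnf4g held more cholangiocyte marker UMIs on average than nuclei without it in every library. The averages were 4.43, 2.78 and 5.94 against 1.78, 1.69 and 1.46 in knockout 1 to 3. In control 1 to 3 they were 10.2, 4.78 and 6.79 against 1.355, 1.39 and 1.45. These UMIs were not scaled to the depth of each nucleus.

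The summed level of 9 cholangiocyte markers in hepatocyte nuclei was 179, 160 and 144 CPM in knockout libraries and 152, 130 and 127 CPM in control libraries, with overlap. The largest part of it was Pkhd1, between 72.4 and 96.4 CPM over the 6 libraries. Sox9 stood at 11.4, 16.5 and 11.2 CPM in knockout hepatocytes, against 9.97, 5.05 and 4.72 CPM in control ones, with no overlap. Epcam ran the other way without overlap, at 0.36, 0.40 and 0 CPM in knockout hepatocytes and 0.46, 0.86 and 0.41 CPM in control ones, and Spp1 and Bicc1 had lower means in knockout than in control hepatocytes, with overlap. Krt7 was at 0 in all 3 knockout libraries and 2 of the control libraries. From 1 to 3 of the 9 markers were at 0 in a library. The part of these markers in the Hnf4g difference was not tested. In cholangiocytes, where Hnf4g is abundant, it stood at 670, 834 and 676 CPM in knockout libraries and 694, 701 and 626 CPM in control libraries (log2 fold change 0.09, SE 0.14), and the groups overlapped.

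Ppara was counted at 1705, 1299 and 1668 CPM in knockout hepatocytes and 2025, 1884 and 1637 CPM in control hepatocytes. The groups overlapped only through control 3, and the log2 fold change of -0.29 (SE 0.22) did not pass. Rxra was counted at 146, 168 and 118 CPM in knockout hepatocytes, against 160, 157 and 147 CPM in control ones (-0.16, SE 0.15), so knockout libraries lay on both sides of the controls. In stellate cells, where the deletion was made, Ppara was at 48.9, 51.3 and 45.2 CPM in knockout libraries and 43.3, 35.8 and 38.8 CPM in control libraries. There the groups did not overlap (as for 7.83% of 11502 genes in this direction and 11% in either), yet the log2 fold change of 0.25 (SE 0.15) did not pass. Hepatocyte RNA in stellate nuclei was also higher in the knockout group. The 12 hepatocyte markers, none at 0, summed to 880, 1106 and 1706 CPM in knockout stellate nuclei. In control stellate nuclei they summed to 574, 664 and 766 CPM, with no overlap. The free hepatocyte RNA list likewise made up 0.176%, 0.235% and 0.320% of UMIs in knockout stellate nuclei and 0.137%, 0.144% and 0.168% in control ones. In hepatocyte nuclei the same 12 markers summed to 21960, 16500 and 27460 CPM in knockout libraries. In control libraries they summed to 11050, 20930 and 23680 CPM there. The part of hepatocyte RNA in the Ppara difference of stellate nuclei was not tested. Rxra in stellate cells had 106, 99.5 and 99.9 CPM in knockout and 109, 104 and 107 CPM in control libraries, which overlapped.

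Nr1i2 was at 241, 163 and 314 CPM in knockout hepatocytes and 240, 357 and 307 CPM in control ones (log2 fold change -0.39, SE 0.31). Nr1i3 was at 505, 452 and 482 CPM in knockout hepatocytes and 351, 525 and 427 CPM in control ones (0.08, SE 0.22). For both xenobiotic receptors the groups overlapped, and the knockout levels of Nr1i3 lay closer together than the control levels. Nr1h3 had 53.0, 56.0 and 50.9 CPM in knockout hepatocytes and 54.9, 46.0 and 44.6 CPM in control ones (0.09, SE 0.12). In macrophages, its main site, Nr1h3 had 448, 336 and 453 CPM in knockout libraries and 275, 419 and 339 CPM in control libraries (0.24, SE 0.18), again with overlap.

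Hnf4a was at 485, 492 and 557 CPM in knockout hepatocytes and 465, 567 and 473 CPM in control ones (log2 fold change -0.03, SE 0.19). Esrra was at 43.3, 37.1 and 34.9 CPM in knockout hepatocytes and 47.6, 35.6 and 37.1 CPM in control ones (-0.11, SE 0.15). Both genes overlapped between the groups.

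For Nr3c1 and Nr5a2 the libraries split by another line than genotype. Nr3c1 was at 204, 287 and 162 CPM in knockout hepatocytes and 243, 143 and 115 CPM in control ones (log2 fold change 0.35, SE 0.27), and its highest levels were in knockout 2 and control 1. Nr5a2 was at 423, 316 and 477 CPM in knockout hepatocytes and 341, 426 and 415 CPM in control ones (-0.01, SE 0.25), and its lowest levels were in the same 2 libraries. These are the libraries with hepatocyte clusters of their own. They also held the most Angptl8, a gene raised by feeding, with 226 CPM in knockout 2 and 114 CPM in control 1, beside 2.90 to 14.0 CPM in the other 4. The part of this split in the results was not tested. In endothelial cells Nr5a2 was at 224, 293 and 224 CPM in knockout libraries and 263, 166 and 246 CPM in control libraries, so knockout 2 and control 1 were there the highest of their groups. Nr3c1 in stellate cells was likewise highest in knockout 2 and control 1, at 281, 329 and 206 CPM in knockout libraries and 305, 223 and 217 CPM in control libraries.

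In the other classes no member passed either. The test called 7 of 11502 genes in stellate cells (0.0609%), 1 of 12984 in endothelial cells (0.0077%), 0 of 12041 in macrophages (0%; 394 at an unadjusted p under 0.05 and 8 by DESeq2) and 1 of 6562 in T/NK cells (0.0152%). It called 2 of 4913 genes in B cells (0.0407%) and 0 of 6642 in cholangiocytes (0%; 286 at an unadjusted p under 0.05 and 1 by DESeq2). After the filter on low counts, 5 members were tested in stellate cells, 8 in endothelial cells, 7 in macrophages, 2 in T/NK cells, 1 in B cells and 8 in cholangiocytes. Apart from Ppara in stellate cells, every tested member had overlapping groups in these 6 classes, whereas 9.91% of genes tested in endothelial cells did not overlap, 8.84% in macrophages, 9.66% in T/NK cells, 8.92% in B cells and 8.37% in cholangiocytes. At their main sites outside hepatocytes the log2 fold changes were -0.07 (SE 0.14) for Nr3c1 in T/NK cells, -0.11 (SE 0.15) for Nr3c1 in B cells, 0.09 (SE 0.17) for Nr5a2 in endothelial cells, -0.12 (SE 0.16) for Nr5a2 in cholangiocytes, 0.12 (SE 0.15) for Esrra in macrophages and -0.16 (SE 0.14) for Rxra in macrophages.

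Genes that these receptors are known to act on were read in hepatocytes as lists. None of their members passed in either direction, and each list is given by its signs and median, beside the median of -0.0026 for all genes. Of 24 PPARA targets, 2 were higher and 22 lower in knockout hepatocytes, with a median log2 fold change of -0.34. The 2 with the smallest unadjusted p were Acot1, an acyl-CoA thioesterase gene, and Cidec, a lipid droplet gene. Acot1 had 12.7 ± 1.41 CPM in knockout and 22.5 ± 2.46 CPM in control hepatocytes (-0.88, SE 0.16), and Cidec had 71.6 ± 9.50 CPM in knockout and 119 ± 22.5 CPM in control hepatocytes (-0.79, SE 0.18; SD, n = 3 each), with no overlap for either, as for 7.6% of all genes tested in hepatocytes. The mean deviation of the 24 targets from their 6-library means was -0.17, -0.0040 and -0.36 on the log2(CPM + 1) scale in knockout 1 to 3 and 0.35, -0.0075 and 0.19 in control 1 to 3, so knockout 2 and control 2 lay together in the middle.

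Of 11 tested CAR and PXR targets, 2 were higher and 9 lower (median -0.43). The lead genes Abcc3, a bile acid and conjugate exporter gene, and Cyp2c55, a cytochrome P450 gene, had log2 fold changes of -0.32 (SE 0.20) and -0.45 (SE 0.39). Of 9 LRH-1 targets, 2 were higher and 7 lower (median -0.29), led by Cyp7a1, the rate-limiting enzyme of bile acid synthesis (71.3 ± 10.5 CPM in knockout and 105 ± 14.3 CPM in control hepatocytes, SD, n = 3 each), and Scarb1, the HDL receptor gene. Cyp7a1 also stands on the LXR list, of which 7 were higher and 5 lower (12 tested, Nr1h3 itself among them; median 0.08). Scd1, a fatty acid desaturase gene, had 14.4 ± 5.64 CPM in knockout and 8.31 ± 1.92 CPM in control hepatocytes (SD, n = 3 each). Of 12 ERRα targets, 1 was higher and 11 lower (median -0.08), and of 14 glucocorticoid receptor targets, 6 were higher and 8 lower (median -0.11). The lead genes of these 2 lists were Etfdh (-0.32, SE 0.16) and Idh3a (-0.25, SE 0.18) for ERRα, and Klf9 (0.32, SE 0.24) and Per1 (0.37, SE 0.30) for the glucocorticoid receptor.

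Of 14 HNF4A targets, 9 were higher and 5 lower in knockout hepatocytes (median 0.15). The lead genes Serpina1a (log2 fold change 0.72, SE 0.20) and Ttr (0.66, SE 0.23) are among 5 targets, with Apoa1, Apoa2 and Apoc3, that also belong to the free hepatocyte RNA list, of which all 15 were higher (median 0.37) and none passed. All 5 were higher, and of the other 9 HNF4A targets 4 were higher and 5 lower (median -0.04). Among 27 other nuclear receptors, 17 were higher and 10 lower, led by Ppard, at 37.9 ± 2.71 CPM in knockout and 48.5 ± 0.77 CPM in control hepatocytes, and by the clock gene Nr1d1, at 29.3 ± 4.13 CPM in knockout and 17.9 ± 5.05 CPM in control hepatocytes (SD, n = 3 each). Of 15 coregulator genes, 9 were higher and 6 lower (median 0.0065), led by Nrip1 (-0.31, SE 0.27) and Hdac3 (0.14, SE 0.18).

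The members were then compared between zones of the lobule. Hepatocyte nuclei of each library were ranked by 11 pericentral and 7 periportal genes, none of them a member, and cut into 3 zones of equal size. A zone is a range of the score, not a cell type, and 1680 of 5215 nuclei (32.2%) lay within 0.1 SD of the score from a cut. All 5 pericentral genes kept out of the score, Cyp7a1 among them, rose in the pericentral zone. With the mouse as a block, 5 of the 10 members passed between the pericentral and the periportal zone, where 24.6% of 12498 genes did. Nr1i3 and Rxra were higher pericentrally (2 of 10, beside 11.7% of all genes), and Esrra, Nr1i2 and Hnf4a were lower (3 of 10, beside 12.9%).

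**Figure D3:**
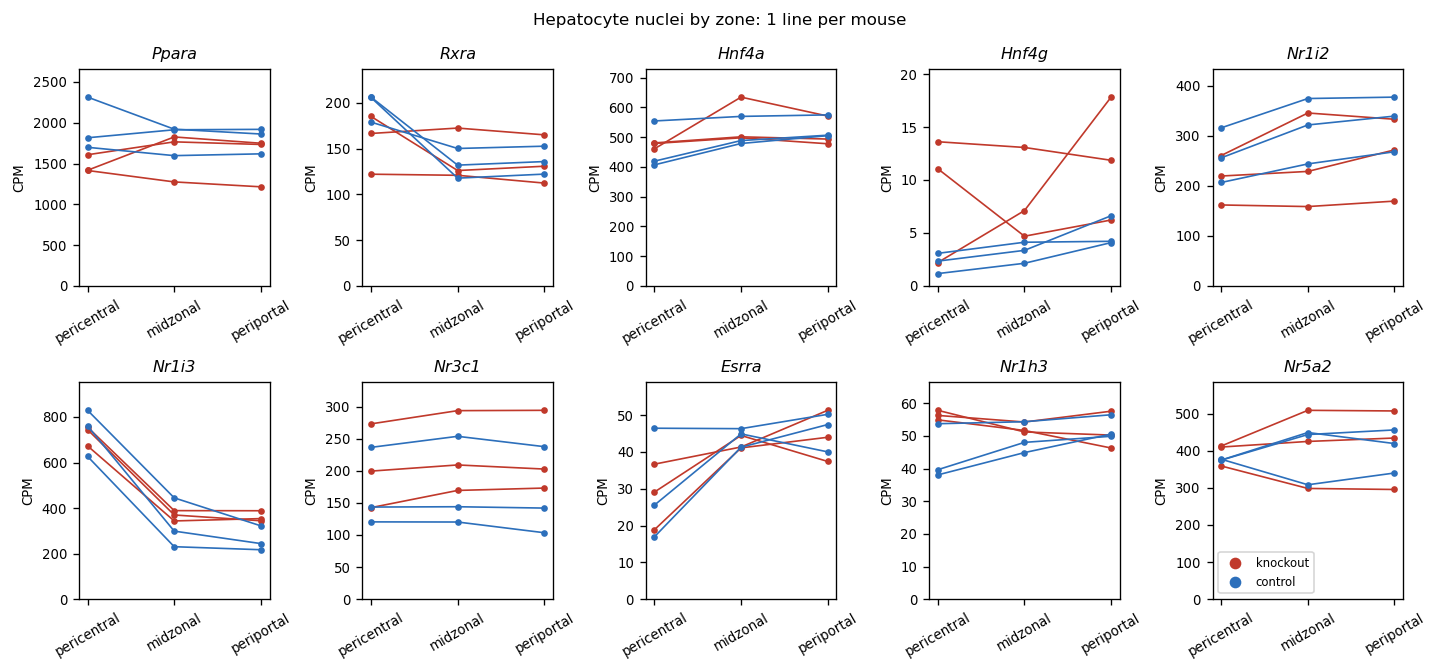
Level of each gene in CPM in the pericentral, midzonal and periportal zone of hepatocyte nuclei, with 1 line per mouse, in red for knockout and blue for control mice. Nr1i3 is highest in the pericentral zone of all 6 mice, and Nr1i2 and Esrra are lower there than in the periportal zone of all 6.

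Nr1i3 had the steepest gradient of the members. Knockout mice had 755, 673 and 744 CPM in the pericentral zone, against 388, 354 and 344 CPM in the periportal zone. Control mice had 627, 829 and 760 CPM in the pericentral zone, against 217, 322 and 244 CPM in the periportal zone. The 2 zones did not overlap, the pericentral level was 1.90 to 3.11 times the periportal one in the 6 mice, and the log2 fold change was 1.22 (SE 0.092, adjusted p = 9.16e-07, edgeR's quasi-likelihood test with Benjamini-Hochberg adjustment). It passed under all 17 alternatives, between 1.14 and 1.27. The midzonal zone had 389, 344 and 370 CPM in knockout mice and 230, 445 and 299 CPM in control mice, close to the periportal zone. In the clusters led by Cyp2c38 and Slc1a2 or by Tbx3 and Lgr5, levels ran from 778 to 1076 CPM per library.

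Most of Nr1i3 overlaps Tomm40l, a mitochondrial import gene on the opposite strand (chromosome 1, bases 171216011 to 171222514). Tomm40l had 9269 UMIs in hepatocytes beside 25576 for Nr1i3, and its pericentral over periportal log2 fold change was 1.25 (SE 0.11, adjusted p = 1.21e-05, same test). No label or file header says whether counting used strand. Whether reads of either gene entered the count of the other was not tested. The same holds for Hnf4a and its antisense partner Hnf4aos, and for Esrra and Trmt112 where their ends overlap. Nr1h3 shares its strand with the overlapping transcript Gm13783, which had 18 UMIs in hepatocytes.

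Rxra had 185, 167 and 122 CPM pericentrally against 131, 165 and 112 CPM periportally in knockout mice. In control mice it had 179, 206 and 206 CPM pericentrally against 153, 136 and 122 CPM periportally. The pericentral level was the higher in 6 of 6 mice, by as little as 1.01 times in knockout 2, and the log2 fold change was 0.33 (SE 0.086, adjusted p = 0.0094, edgeR with Benjamini-Hochberg adjustment). It did not pass after thinning nuclei to 1500 UMIs (0.20, adjusted p = 0.32, and 1.80e-05 to 0.32 over the alternatives).

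Nr1i2 ran the other way from Nr1i3. Its pericentral levels were 220, 162 and 261 CPM in knockout mice, against periportal levels of 272, 170 and 333 CPM. In control mice they were 207, 316 and 256 CPM pericentrally, against 268, 377 and 339 CPM periportally. All 6 mice were lower in the pericentral zone, the mice spread more widely than the zones, and the log2 fold change was -0.34 (SE 0.059, adjusted p = 2.07e-04, edgeR with Benjamini-Hochberg adjustment).

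Esrra had 36.7, 29.1 and 18.9 CPM pericentrally in knockout mice, against 51.3, 37.4 and 44.0 CPM periportally. In control mice it had 46.4, 16.9 and 25.5 CPM pericentrally, against 50.2, 47.4 and 40.0 CPM periportally. The gap was narrowest in control 1 (0.925 times) and widest in control 2 (0.357 times), and the log2 fold change was -0.68 (SE 0.16, adjusted p = 0.0085, edgeR with Benjamini-Hochberg adjustment). After thinning it was -0.44 with an edgeR adjusted p of 0.19, within a range of 6.34e-11 to 0.19 over the alternatives.

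Hnf4a fell by 0.20 on the log2 scale (SE 0.059, adjusted p = 0.0157, edgeR with Benjamini-Hochberg adjustment). It had 479, 481 and 461 CPM pericentrally against 478, 494 and 571 CPM periportally in knockout mice, and 407, 554 and 419 CPM pericentrally against 505, 575 and 507 CPM periportally in control mice. Knockout 1 showed no gap. The call was lost with DESeq2 (adjusted p = 0.058), after thinning (0.074) and without knockout 3 (0.066), without control 1 (0.060), without control 3 (0.069) or without control 1 and knockout 2 together (0.065), and the range over the alternatives was 0.0020 to 0.47. Its antisense partner Hnf4aos fell by 0.44 (SE 0.065, adjusted p = 3.61e-05).

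The other 5 members did not pass between zones, although Nr5a2 did without control 1 and knockout 2 (-0.24, edgeR adjusted p = 0.017, and 0.017 to 0.76 over the alternatives). Their log2 fold changes were -0.02 (SE 0.070) for Ppara, -0.07 (SE 0.062) for Nr3c1, -0.11 (SE 0.092) for Nr1h3, -0.11 (SE 0.074) for Nr5a2 and -0.79 (SE 0.50) for Hnf4g, which had 4 to 61 UMIs per zone and library.

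**Figure D4:**
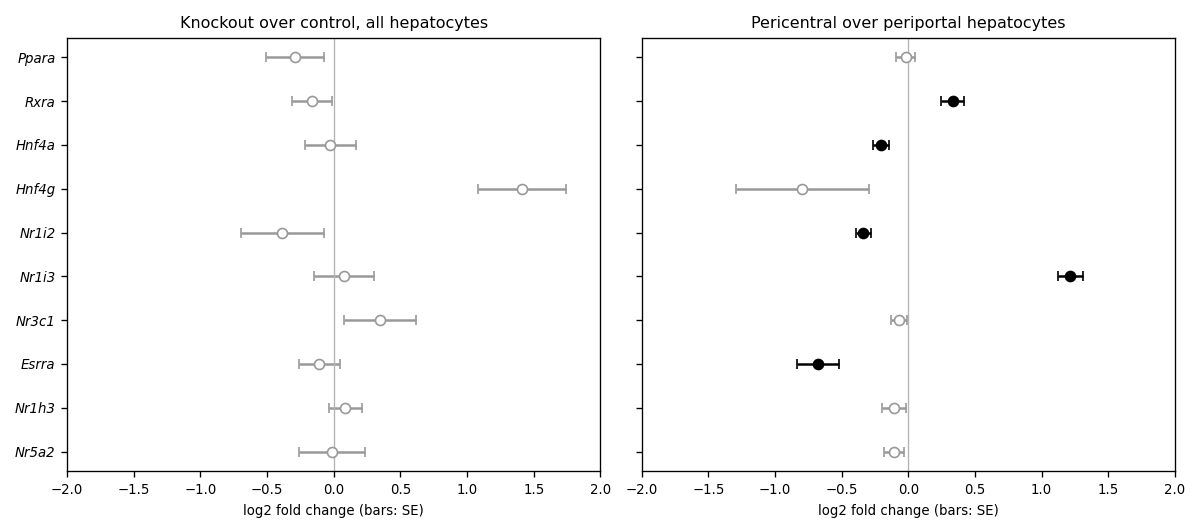
Log2 fold change of each gene in hepatocyte nuclei, knockout over control (left) and pericentral over periportal (right), with the SE as bars. Filled points passed an adjusted p of 0.05: none on the left, and Rxra, Hnf4a, Nr1i2, Nr1i3 and Esrra on the right.

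Targets of the zoned receptors were read over the same zones, where the median log2 fold change of all genes was 0.00071 and 11.7% of all genes rose and 12.9% fell. Of 10 tested CAR and PXR targets, 5 rose and 1 fell in the pericentral zone and 4 did not pass (median 0.57). Abcc3 rose by 0.93 (SE 0.092), and Cyp2c55 was not tested there. Of 12 ERRα targets, 1 rose, 8 fell and 3 did not pass (median -0.31), with Idh3a, a citrate cycle gene, up by 0.47 (SE 0.11) and Etfdh at 0.02 (SE 0.059). Of 14 HNF4A targets, 10 fell and 4 did not pass (median -0.30). Serpina1a fell by 0.42 (SE 0.067) and Ttr by 0.31 (SE 0.053). They belong to the 5 targets shared with the free hepatocyte RNA list, of which 12 of 15 fell and 1 rose. Of the 9 targets not shared with it, 6 fell and none rose (median -0.25).

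Targets of the receptors whose genes did not pass between zones were read in the same way. Of 24 PPARA targets, 6 rose, 7 fell and 11 did not pass (median -0.05), with Acot1 up by 2.71 (SE 0.18) and Cidec at -0.17 (SE 0.070). Of 14 glucocorticoid receptor targets, 1 rose, 6 fell and 7 did not pass (median -0.11, with 12 lower by sign). Of 11 tested LXR targets, 2 rose, 2 fell and 7 did not pass (median 0.06). Of 9 LRH-1 targets, 3 rose, 2 fell and 4 did not pass (median 0.11), Cyp7a1 and Scarb1 among those that rose. Gls2, which fell, is a gene of the periportal score, which fixes its fall, and without it 3 of 8 rose and 1 fell. Among 27 other nuclear receptors, 5 rose and 8 fell, with Nr1d1 down at -0.42 (SE 0.12) and Ppard at 0.12 (SE 0.084). Of 15 coregulators, 1 rose (Nrip1, by 0.34, SE 0.062) and 3 fell, shares near those of all genes.

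Whether genotype and zone acted together was tested as an interaction, with the mouse as a block. It called 11 of 12498 genes (0.088%), and no member was among them. Between knockout and control within a zone, no gene passed with edgeR (0%), with 445, 380 and 375 genes at an unadjusted p under 0.05 and 7, 11 and 8 called by DESeq2 from the pericentral to the periportal zone. For the interaction, Nr1i3 came nearest, with a pericentral over periportal log2 ratio lower by 0.50 in knockout than in control mice (interaction -0.50, SE 0.12, unadjusted p = 2.90e-04, edgeR adjusted p = 0.16, and 0.0076 to 0.94 over the alternatives, the lowest with no filter on low counts). Its periportal level was 388, 354 and 344 CPM in knockout mice, against 217, 322 and 244 CPM in control mice, with no overlap (as for 4.85% of genes in this direction and 7.59% in either), and there the log2 fold change of 0.41 (SE 0.22) did not pass. In the pericentral zone the Nr1i3 groups overlapped, with a log2 fold change of -0.08 (SE 0.22), and the midzonal value was 0.10 (SE 0.28).

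Nr1h3 and Ppara had groups that did not overlap in the pericentral zone. Nr1h3 was at 57.8, 56.3 and 54.9 CPM in knockout mice, against 53.7, 39.6 and 38.0 CPM in control mice (as for 4.99% of genes in this direction and 8.15% in either), with a log2 fold change of 0.33 (SE 0.16) and an interaction of 0.40 (SE 0.16, adjusted p = 0.76 with edgeR). Ppara was at 1608, 1415 and 1418 CPM in knockout mice, against 2314, 1816 and 1699 CPM in control mice (as for 3.16% of genes in this direction), with a log2 fold change of -0.43 (SE 0.21). Neither passed, and their midzonal and periportal groups overlapped, at 0.03 and -0.08 for Nr1h3 and -0.21 and -0.25 for Ppara. Rxra had an interaction of -0.30 (SE 0.15, adjusted p = 0.85 with edgeR), with knockout over control values of -0.38, 0.0012 and -0.07 from the pericentral to the periportal zone. Hnf4g was higher in knockout than in control mice by 1.31 (SE 0.47) in the midzonal and 1.18 (SE 0.41) in the periportal zone, neither of which passed after adjustment. Its midzonal groups, at 13.1, 7.11 and 4.70 CPM in knockout mice and 2.14, 4.13 and 3.36 CPM in control mice, did not overlap (as for 5.18% of genes in this direction and 7.71% in either). The gene was too low to be tested in the pericentral zone.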

How the data were processed

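RNA of single liver nuclei was read in 3 knockout and 3 control libraries. The deposited matrices hold raw UMI counts per gene and barcode, made by the authors with Cell Ranger (7.1.0 per the file headers, 7.0.1 per the submitters' processing notes, which name mm10). Settings for introns and strand are not stated in labels or headers, and CPM here was computed from those counts.

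Nuclei with at least 500 genes, 1000 UMIs and under 5% mitochondrial UMIs were kept, and 805 of 26467 were left out as doublets (scrublet in scanpy 1.11.5). Leiden clusters (3000 variable genes, 30 components, 15 neighbours, resolution 1) were named from marker lists. Nuclei left unnamed made up 4.57%, 6.13% and 5.36% of knockout libraries and 4.10%, 17.8% and 4.65% of control libraries. Portal mesenchymal nuclei stayed unnamed, since their leading genes held none of their own markers, and were not tested. UMIs were summed per mouse and class and fitted with edgeR 4.0.16 in R 4.3.3 (quasi-likelihood, TMM, filterByExpr, Benjamini-Hochberg over all genes tested, threshold 0.05). The zone fit used the mouse as a block, since both zones come from each mouse. DESeq2 1.42.0 was an alternative, as were other scaling, no filter, thinning to 1500 UMIs, doublets kept, a minimum of 2000 UMIs, other zone cuts and leaving out libraries. A list gene was named if it was past the threshold in hepatocytes, and otherwise if among the 2 smallest p-values of its list. The scripts were tested on simulated data. Members and lists were chosen with earlier results of these data known. Replicate numbers were given in accession order and pair no mice across genotypes. Gene positions are from GENCODE M21.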

Additional observations from a re-analysis of the deposited data

How the results depend on the processing

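No member passed between knockout and control in any class or zone under any alternative run, and the 5 zone calls kept their direction under all 17. Nr1i3 passed in all, Nr1i2 in 16, Rxra and Esrra in 15 and Hnf4a in 10 of 17. With no replicate block, that is without pairing the zones of a mouse, 679 genes were called between zones and only Nr1i3 still passed among the members (adjusted p = 3.39e-04, against 0.19 for Rxra, 0.062 for Esrra, 0.52 for Nr1i2 and 0.47 for Hnf4a, edgeR). Zone counts were 1920 with DESeq2 and 1233 after thinning, and 2416 to 2829 without 1 library. Fewer UMIs per nucleus limit low members first: after thinning, Hnf4g was tested only in cholangiocytes. No paired analysis was possible between genotypes because replicate numbers only name mice.

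Counts of called genes moved as follows, the cause not tested. DESeq2 called 15 genes in hepatocytes, 12 in stellate cells, 19 in endothelial cells, 8 in macrophages, 1 in cholangiocytes, and 7, 11 and 8 in pericentral, midzonal and periportal hepatocytes. With no low-count filter the counts were 72 (stellate), 69 (endothelial), 37 (macrophage), 34 (T/NK), 9 (B), 6 (cholangiocyte), 4, 5 and 5 (the 3 zones) and 106 (interaction). Without control 1 and knockout 2 they were 8 (endothelial), 2 (macrophage), 2 (T/NK), 17 (B), 3 (cholangiocyte), 4 (midzonal), 1 (periportal) and 29 (interaction). Thinning gave 2 (endothelial), 1 (B) and 3 (interaction), and the minimum of 2000 UMIs gave 1 (B). Leaving out 1 library in turn gave 0 in hepatocytes, macrophages, pericentral and periportal hepatocytes, 0 to 3 in midzonal hepatocytes, 5 to 9 in stellate cells, 0 to 7 in endothelial cells, 1 to 40 in T/NK cells (40 without control 3), 2 to 11 in B cells, 0 to 8 in cholangiocytes and 9 to 92 for the interaction. Leaving out control 1 gave the highest count in midzonal hepatocytes, endothelial cells, B cells, cholangiocytes and the interaction.

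In hepatocytes, log2 values that kept their sign ran from -0.66 (without knockout 3) to -0.15 (without knockout 2) for Nr1i2, 0.15 (without knockout 2) to 0.63 (without control 1) for Nr3c1, -0.37 (without knockout 3) to -0.14 (without control 1 and knockout 2) for Ppara and -0.28 (without control 1 and knockout 2) to -0.060 (without knockout 3) for Rxra. Members near 0 changed sign without passing. With library size alone, log2 values became 0.028 for Hnf4a and 0.042 for Nr5a2 in hepatocytes and 0.020 for Ppara between zones. Without control 1 and knockout 2 they became -0.023 (Nr1i3), 0.020 (Esrra) and 0.020 (Nr5a2) in hepatocytes, 0.11 for Rxra in endothelial cells, 0.0087 for Nr3c1 in macrophages, -0.041 (Hnf4a), -0.0016 (Hnf4g) and 0.056 (Nr5a2) in cholangiocytes, and -0.11 (Rxra) and -0.055 (Nr1i3) in midzonal hepatocytes. Thinning gave 0.011 for Nr5a2 in hepatocytes, -0.0052 for Nr3c1 in stellate cells, 0.0097 for Rxra in endothelial cells and -0.024 for Nr1h3 in midzonal hepatocytes. Common zone cuts gave -0.046 for Nr1h3 and no filter -0.00019 for Rxra, both midzonal. Leaving out 1 library in turn, ranges that crossed 0 were -0.14 to 0.073 (Hnf4a), -0.10 to 0.24 (Nr1i3) and -0.17 to 0.17 (Nr5a2) in hepatocytes, -0.25 to 0.0068 (Nr1i3, pericentral), -0.13 to 0.065 (Rxra, midzonal), -0.14 to 0.40 (Nr1i3, midzonal), -0.18 to 0.027 (Rxra, periportal) and -0.085 to 0.043 (Ppara between zones). In other classes they were -0.064 to 0.24 (Nr3c1, stellate), -0.13 to 0.038 (Rxra), -0.040 to 0.19 (Nr3c1) and -0.083 to 0.20 (Nr5a2) in endothelial cells, -0.066 to 0.015 (Nr3c1, macrophage), -0.14 to 0.070 (Nr3c1, T/NK), and -0.14 to 0.37 (Hnf4a), -0.021 to 0.16 (Hnf4g) and -0.24 to 0.051 (Nr5a2) in cholangiocytes.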
